A study of Mus musculus with 21 samples.

Results

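The genes followed here are the leptin receptor and the core of its JAK-STAT signalling pathway, in 2 cell types of the mouse arcuate nucleus, AGRP and POMC neurons, with mice either fed or food deprived (FD). The 10 genes were taken by symbol from the 35266 genes of the count and TPM tables: Lepr, Jak2, Stat3, Stat5a, Stat5b, Socs2, Socs3, Cish, Ptpn1 and Sh2b1. All 10 were among the 16513 genes that passed the filter on low values and were tested.

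Leptin is a hormone of fat tissue that reports energy stores to the brain, and neurons of the hypothalamic arcuate nucleus are among its main targets. AGRP neurons drive feeding and POMC neurons restrain it, and leptin is known to act on both. The receptor has no kinase of its own: leptin binding activates the attached kinase JAK2, which phosphorylates the receptor and the STAT transcription factors, and STAT3 then enters the nucleus and switches on target genes. Among those targets are inhibitors of the SOCS family, which bind JAK2 or the receptor and close a negative feedback loop, and phosphatases such as PTPN1 remove the phosphates again.

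Each of the 21 libraries came from fluorescent neurons of 1 mouse, picked by hand from the dissociated arcuate nucleus in pools of 44 to 214 cells. AGRP neurons were from NPY-hrGFP mice (5 fed, 6 FD) and POMC neurons from Pomc-GFP mice (5 fed, 5 FD), all male, on a C57BL/6J background and 46 to 56 days old. All mice were moved to a clean cage for the last 24 h, with food freely available in the fed groups and with water only in the FD groups. The AGRP neurons were picked by an Npy reporter, and each cell type came from its own reporter strain, so the cell type and the strain cannot be told apart. Because the libraries are bulk pools, fewer cells expressing a gene and less RNA per cell cannot be told apart either.

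The libraries held 9822298 to 37663979 reads assigned to genes. Npy and Agrp marked every AGRP group, with Agrp at 3455 TPM on average in fed AGRP neurons against 15.5 TPM in fed POMC neurons, and Pomc averaged 16030 TPM in fed POMC neurons against 43.5 TPM in fed AGRP neurons. In FD POMC neurons Agrp averaged 46.0 TPM and Npy 78.9 TPM, where fed POMC neurons had 15.5 and 33.9 TPM. These 2 differences did not pass the test (q = 0.102 and 0.469). In FD AGRP neurons Pomc averaged 32.7 TPM. Markers of other cells were low: the summed level of 4 markers each was 0.218 to 9.79 TPM for astrocytes, 0.948 to 16.1 TPM for oligodendrocytes, 0.07 to 12.5 TPM for microglia, 0 to 4.09 TPM for endothelium and 0 to 11.7 TPM for tanycytes or ependyma. C1qa of microglia was listed at 0 in all libraries. Of these 20 markers 10 passed the filter and were tested, and 1 of the 10 moved with deprivation, the astrocyte gene Aldh1l1, which averaged 0.0258 TPM in fed and 1.69 TPM in FD AGRP neurons (q = 0.0284). The summed tanycyte or ependyma markers were at 0.44 to 7.03 TPM in fed and 0.219 to 1.39 TPM in FD AGRP neurons, and at 1.31 to 11.7 TPM fed and 0 to 1.38 TPM FD in POMC neurons, with Ccdc153 at 0 in both FD groups. Of these 4, Foxj1 was tested (q = 0.22 in AGRP and 0.613 in POMC neurons). The summed oligodendrocyte markers averaged 2.396 TPM in fed and 8.63 TPM in FD POMC neurons. Of 5 genes listed for other arcuate neurons, Sst was higher in AGRP than in POMC neurons (1404 against 80 TPM fed, 1282 against 17.8 TPM FD). Bulk pools do not show whether the sorted neurons themselves or other cells carried Sst. Th was higher in AGRP than in POMC neurons of FD mice, at 10.1 against 0.865 TPM (q = 0.0088), and its responses to deprivation in the 2 cell types did not pass the test of their difference (q = 0.209). Tac2 went the other way, at a mean of 0 TPM in FD AGRP and 7.96 TPM in FD POMC neurons. When fed it averaged 0.0816 TPM in AGRP and 0.095 TPM in POMC neurons. Kiss1 and Ghrh averaged at most 1.83 TPM in any group, and like Tac2 they were not tested. The part of these markers in the results below was not tested.

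Levels are given as normalized CPM, the reads of a gene relative to its library's total after TMM scaling, for comparing one gene between libraries. TPM, which also corrects for transcript length, is used for comparing genes. Differences are log2 fold changes ± SE, and q is the adjusted p of edgeR's quasi-likelihood test over all genes tested, with the threshold at 0.05. A positive value means higher in FD than in fed mice, or higher in AGRP than in POMC neurons. The comparisons share their groups: each FD and fed group enters 1 comparison of feeding state and 1 of cell type.

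The leptin receptor rose in AGRP neurons after food deprivation, and in POMC neurons its difference had the other sign and did not pass the test. Lepr (ENSMUSG00000057722, mm10 chr4:101717404-101815352) stood at 83.4, 56.2, 77.6, 102.7 and 134.5 normalized CPM in the fed AGRP libraries. In the 6 FD AGRP libraries its lowest level was 327.6, the median 468.5 and the highest 649.2 normalized CPM. Every FD library thus lay above every fed one. The fold change was 5.26 (log2 2.39 ± 0.21, 95% interval 1.96 to 2.83, q = 6.04e-09).

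In POMC neurons Lepr was at 82.9, 66.2, 53.3, 64.7 and 72.4 normalized CPM when fed. After deprivation the POMC values were 34.7, 51.6, 49.8, 30.1 and 43.6 normalized CPM. The POMC groups did not overlap either, with FD below fed, but the difference of log2 -0.69 ± 0.21 did not pass the test (95% interval -1.12 to -0.27, q = 0.126). The responses of the 2 cell types differed by log2 3.09 ± 0.29 (q = 3.18e-08). Ordered by mean level, Lepr ran from FD POMC (42.0 ± 9.38 SD) through fed POMC (67.9 ± 10.8) and fed AGRP (90.9 ± 29.5) to FD AGRP neurons (477.8 ± 105.3), and fed POMC and fed AGRP were the neighbours whose ranges overlapped.

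The reads of Lepr were summed over all its transcripts, so the long signalling receptor and the short forms were not separated. Leprot, which lies 58039 bases away on the same chromosome and encodes a protein that limits the amount of leptin receptor at the cell surface, also rose in AGRP neurons, from 20.5 ± 3.1 to 38.3 ± 12.3 normalized CPM (SD, n = 5 and 6, log2 0.90 ± 0.29, q = 0.0426). In POMC neurons Leprot was at 25.7 ± 8.59 fed and 16.2 ± 3.45 FD (n = 5 each, log2 -0.66 ± 0.30, q = 0.356). Its responses in the 2 cell types differed by log2 1.57 ± 0.42 (q = 0.0193), a call that was lost with limma-voom (q = 0.0533), the replicate block (0.0549) and spike-in scaling (0.409). The AGRP call of Leprot was lost when any of 8 of the 11 libraries was left out (log2 0.76 to 1.01 over the 11 omissions), and with limma-voom (q = 0.0607), no count filter (0.0754), the spike-in amount as a block (0.0541), the replicate block (0.125) and spike-in scaling (1.0).

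The 250 bases before the RefSeq start site of Lepr, on the forward strand of GRCm38.p6 (mm10) at chr4:101717157-101717406, are shown because the receptor was the member with the lowest q. They hold no match to TTCNNNGAA, the palindromic letters that STAT dimers bind, which read the same on both strands.
Lepr: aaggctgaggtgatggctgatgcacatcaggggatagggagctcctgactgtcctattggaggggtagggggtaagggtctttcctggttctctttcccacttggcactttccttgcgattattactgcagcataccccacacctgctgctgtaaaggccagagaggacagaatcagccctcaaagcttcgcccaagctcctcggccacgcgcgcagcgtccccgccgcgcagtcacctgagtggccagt

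**Figure D1:**
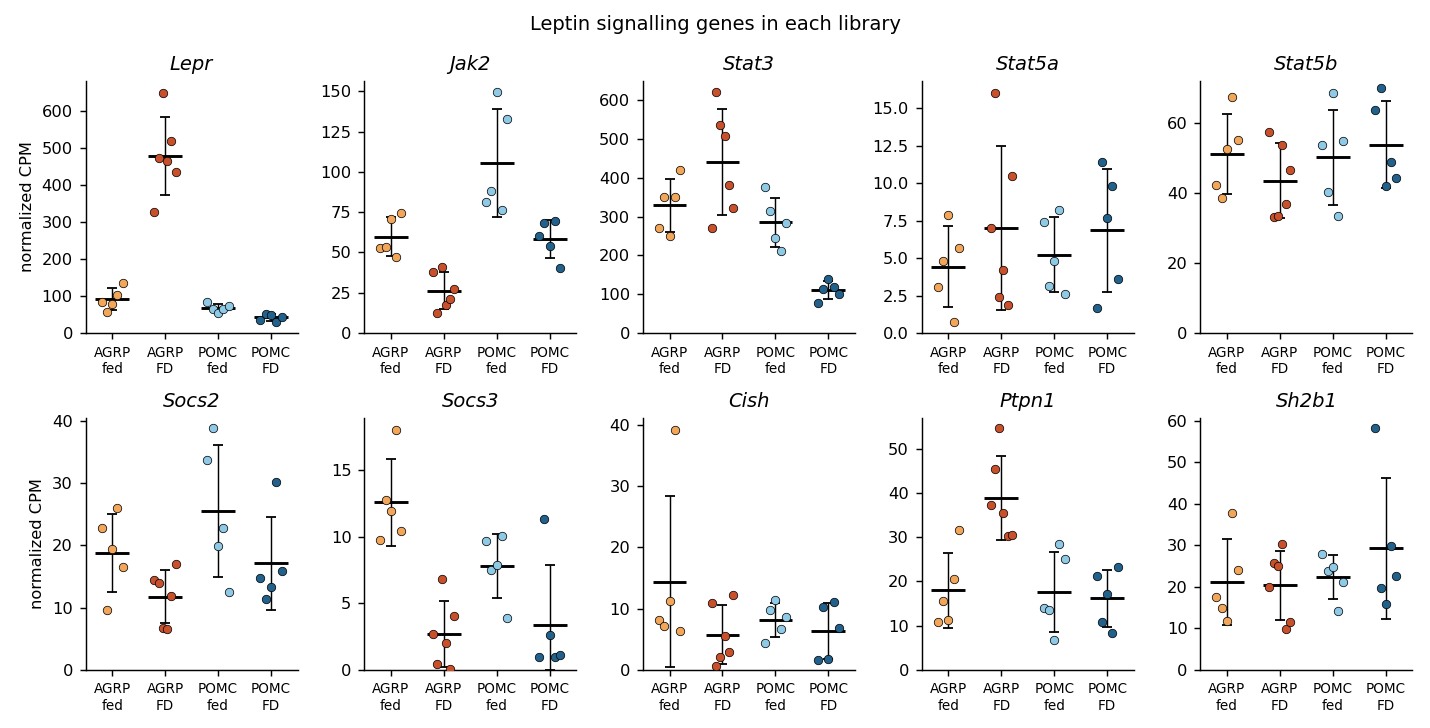
Normalized CPM (linear axes from 0) of the 10 leptin signalling genes in each of the 21 libraries, with 1 point per mouse, the group mean as a bar and the SD as a whisker that ends at 0 where it would go below. Lepr in the 6 FD AGRP libraries, at 327.6 to 649.2, stood above every other library, and Stat3 in the 5 FD POMC libraries, at 77.2 to 138.8, below every other library.

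Jak2, the kinase that the receptor depends on, fell in AGRP neurons while the receptor rose. Jak2 (ENSMUSG00000024789, chr19:29251828-29313080) was at 53.0, 53.3, 70.6, 47.3 and 74.7 normalized CPM in fed AGRP neurons. In FD AGRP neurons its lowest level was 12.3, the median 24.3 and the highest 40.9 normalized CPM. No FD library reached the fed range, and the difference was log2 -1.19 ± 0.27, 2.28 times lower (95% interval -1.73 to -0.64, q = 0.00337). Within the mice aged 46 or 47 days (2 fed, 3 FD) Jak2 was lower by log2 -1.01 and did not pass (q = 0.486), and within those aged 51 to 55 days (3 each) it was lower by -1.42 (q = 0.0127).

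In POMC neurons Jak2 was at 81.2, 88.0, 149.5, 76.3 and 132.9 normalized CPM when fed. The FD POMC values were 60.2, 68.1, 54.1, 69.5 and 40.6 normalized CPM. Here too the FD libraries lay below the fed ones without overlap, by log2 -0.85 ± 0.28, which did not pass the test (q = 0.17). The responses of the 2 cell types differed by log2 -0.34 ± 0.38, with a 95% interval from -1.12 to 0.45 (q = 0.695). Sh2b1, an adaptor that binds JAK2 and raises its activity (ENSMUSG00000030733, chr7:126466994-126475130), gave log2 -0.06 ± 0.37 in AGRP and 0.39 ± 0.39 in POMC neurons, with 95% intervals of -0.82 to 0.70 and -0.40 to 1.18 (q = 0.957 and 0.764).

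Stat3 changed in the other cell type. Stat3 (ENSMUSG00000004040, chr11:100885098-100939540) stood at 375.7, 313.4, 244.4, 211.4 and 284.1 normalized CPM in fed POMC neurons. In FD POMC neurons it was at 77.2, 114.6, 138.8, 119.2 and 100.6 normalized CPM. The highest FD library was thus below the lowest fed one, and the difference was log2 -1.38 ± 0.21, 2.60 times lower (95% interval -1.80 to -0.95, q = 0.000504). Within the POMC libraries that received 1 µl of spike-in RNA (3 each) the difference was -1.17 (q = 0.0477).

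In fed AGRP neurons Stat3 was at 271.0, 349.8, 251.2, 351.0 and 421.3 normalized CPM. The FD AGRP libraries ran from 270.6 through a median of 445.9 to 622.5 normalized CPM. These groups overlapped widely, and the difference of log2 0.42 ± 0.20 did not pass the test (q = 0.201). The responses of AGRP and POMC neurons differed by log2 1.80 ± 0.29 (q = 0.000158). Ordered by mean level, Stat3 ran from FD POMC through fed POMC and fed AGRP to FD AGRP neurons, the same order as Lepr, and of these neighbours only FD POMC and fed POMC did not overlap.

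The 250 bases before the start site of Stat3, on the reverse strand of GRCm38.p6 at chr11:100939541-100939790, are shown as the start of the gene that changed in POMC neurons. They hold no TTCNNNGAA.
Stat3: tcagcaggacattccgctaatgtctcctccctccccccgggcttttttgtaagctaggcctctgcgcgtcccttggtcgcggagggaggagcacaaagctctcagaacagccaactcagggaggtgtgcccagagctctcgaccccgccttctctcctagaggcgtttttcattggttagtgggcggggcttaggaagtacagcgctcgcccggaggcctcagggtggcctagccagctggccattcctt

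The STAT5 genes, which relay growth hormone, prolactin and cytokine signals as well, showed no change that passed the test. Stat5b (ENSMUSG00000020919, chr11:100780731-100850724) averaged 43.5 to 53.7 normalized CPM in the 4 groups. Its differences were log2 -0.23 ± 0.24 in AGRP and 0.10 ± 0.25 in POMC neurons (q = 0.628 and 0.928). Stat5a (ENSMUSG00000004043, chr11:100859351-100885169) was low, at 0.712 to 16.1 normalized CPM over all libraries, and its differences were log2 0.67 ± 0.66 in AGRP (95% interval -0.69 to 2.02, q = 0.62) and 0.39 ± 0.69 in POMC neurons (q = 0.895). Stat5a and Stat3 overlap by 72 bases on opposite strands and the counting ignored strand. A full read of 100 bases is longer than the overlap, so only a read shortened by trimming can lie wholly there and fit both genes. Reads that fitted more than 1 gene were set apart as ambiguous and added to neither. Of 100-base stretches, the length of a read, Stat5a shares 3.44% with Stat5b and Stat5b 4.79% with Stat5a, and only uniquely mapped reads were counted.

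For the feedback inhibitors Socs3, Socs2 and Cish, no difference between fed and FD mice passed edgeR's test. Group means ran from 2.68 to 12.6 normalized CPM for Socs3, 5.73 to 14.4 for Cish and 11.8 to 25.5 for Socs2. Socs3 (ENSMUSG00000053113, chr11:117966079-117969186), a STAT3 target that blocks the receptor and JAK2, was at 9.75, 12.7, 11.9, 18.03 and 10.45 normalized CPM in fed AGRP neurons. In the 6 FD AGRP libraries it ran from 0.0506 (1 read) through a median of 2.36 to 6.80 normalized CPM. The groups did not overlap, and the difference was log2 -2.23 ± 0.76, which missed the threshold (95% interval -3.79 to -0.68, q = 0.0576). limma-voom and DESeq2 placed it past the threshold (q = 0.00335 and 0.017), and so did edgeR without FD library 3 (-2.77, q = 0.0277).

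In POMC neurons Socs3 was at 9.67, 7.48, 7.86, 10.0 and 3.90 normalized CPM when fed. Of the FD POMC libraries, 4 were at 0.959, 2.58, 0.982 and 1.09, and library 2 was at 11.3 normalized CPM. That library lay above every fed one, and the difference over all libraries was log2 -1.19 ± 0.79 (q = 0.584). Without library 2 it was -2.45 (q = 0.196), and the difference between the cell types' responses moved from log2 -1.04 to 0.21.

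Socs2 (ENSMUSG00000020027, chr10:95411490-95416857), which mainly restrains growth hormone signalling, averaged 18.8 ± 6.27 fed and 11.8 ± 4.27 FD in AGRP neurons (normalized CPM, SD, n = 5 and 6), and 25.5 ± 10.7 fed and 17.1 ± 7.49 FD in POMC neurons (n = 5 each). Both differences, log2 -0.68 ± 0.37 and -0.58 ± 0.39, were within the overlap of the groups (q = 0.289 and 0.594). Cish (ENSMUSG00000032578, chr9:107296026-107302784), a STAT5 target that feeds back on cytokine receptors, was at 6.32 to 39.3 normalized CPM in fed and 0.633 to 12.3 in FD AGRP neurons (log2 -1.33 ± 0.66, q = 0.229). Library 4 alone carried the upper end of the fed range, and without it the difference was -0.52 (q = 0.751). In POMC neurons Cish was at 4.31 to 11.5 fed and 1.598 to 11.1 FD (log2 -0.37 ± 0.69, q = 0.901).

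Socs3 and Cish were the 2 members with TTCNNNGAA in the RefSeq window from 250 bases before to 50 bases after the start site, out of 9 members with a window. Of all 32851 windows in that table, 2726 or 8.3% held at least 1 match. That share counts windows and not genes, and Lepr, Stat5a, Stat5b and Sh2b1 had more than 1 window each. It is therefore not a like measure for 2 of 9 members. The sequences are shown for these matches, which are in capitals: in Socs3 at chr11:117969512-117969520 within the upstream bases chr11:117969367-117969616 (reverse strand), and in Cish 2 matches within chr9:107296654-107296683 (forward strand), 1 starting at the start site itself. These RefSeq start sites differ from the ends of the counted loci. That of Socs3, at 117969366, lies outside its locus, which ends at 117969186. That of Cish, at 107296659, lies inside its locus, which starts at 107296026. A match is a description of the letters and not a bound site.
Socs3: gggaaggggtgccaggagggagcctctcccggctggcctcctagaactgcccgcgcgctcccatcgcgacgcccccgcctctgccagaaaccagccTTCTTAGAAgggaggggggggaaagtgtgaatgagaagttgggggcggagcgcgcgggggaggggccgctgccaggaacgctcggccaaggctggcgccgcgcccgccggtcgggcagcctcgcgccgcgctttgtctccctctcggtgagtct
Cish: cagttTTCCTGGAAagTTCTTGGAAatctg

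Ptpn1 encodes a phosphatase that dephosphorylates JAK2 (ENSMUSG00000027540, chr2:167932327-167979385), and its level was higher in most FD than fed AGRP libraries. The fed AGRP values were 10.7, 15.6, 11.2, 20.6 and 31.5 normalized CPM. The FD AGRP libraries ran from 30.3 through a median of 36.3 to 54.6 normalized CPM. Only fed library 5 reached into the FD range, and the difference was log2 1.12 ± 0.37, just above the threshold (95% interval 0.36 to 1.88, q = 0.0518). It passed without that library (1.42, q = 0.0207) and with limma-voom and DESeq2 (q = 0.0188 and 0.0219).

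In POMC neurons Ptpn1 averaged 17.5 ± 8.998 fed and 16.2 ± 6.42 FD (normalized CPM, SD, n = 5 each), with log2 -0.11 ± 0.38 (95% interval -0.89 to 0.67, q = 0.954). The responses of the 2 cell types differed by log2 1.23 ± 0.53, which did not pass (q = 0.179). A difference in the Ptpn1 response between the cell types was therefore not established by the test.

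**Figure D2:**
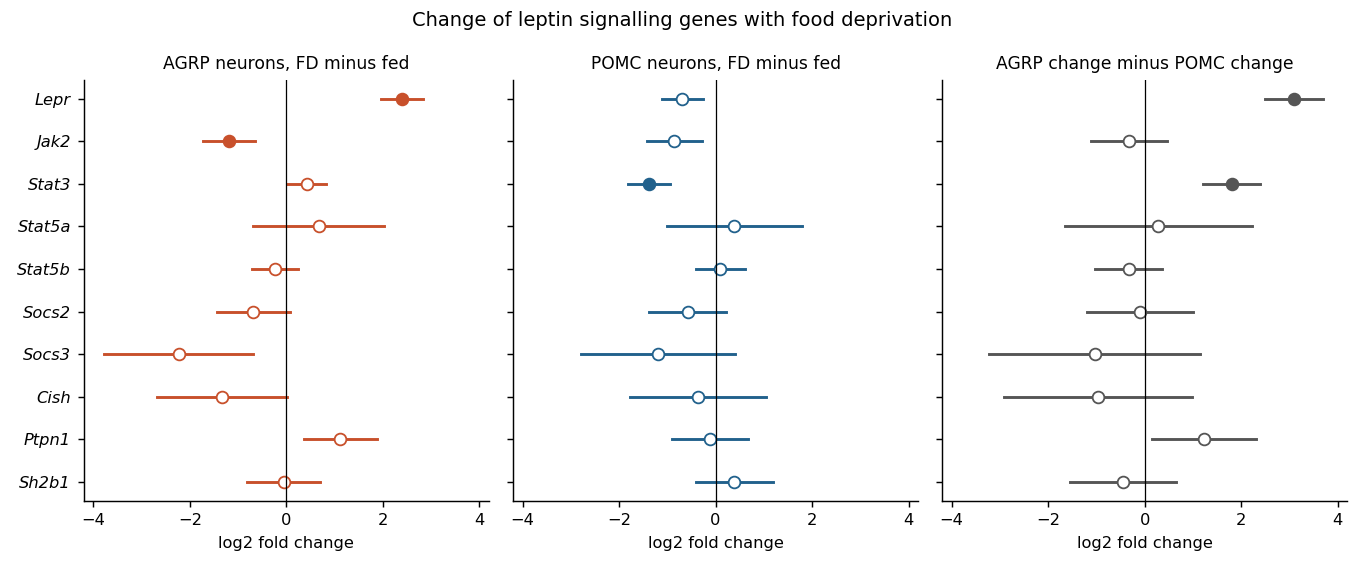
Log2 fold change of each leptin signalling gene with food deprivation in AGRP neurons, in POMC neurons and as the difference of the 2 responses, with 95% intervals and filled points where q was under 0.05. Lepr at 2.39 and Jak2 at -1.19 passed in AGRP neurons, Stat3 at -1.38 in POMC neurons, and Lepr at 3.09 and Stat3 at 1.80 in the difference.

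Counted over the members, 2 of 10 passed in AGRP neurons, beside 10.3% of all genes tested. They were Lepr, which rose as 5.87% of all genes did, and Jak2, which fell as 4.43% did. Groups did not overlap for 3 of 10 (Lepr, Jak2 and Socs3), beside 7.65% of all genes. In POMC neurons 1 of 10 passed, Stat3, beside 0.375% of all genes. Groups did not overlap for 3 of 10, beside 2.35% of all genes, and these 3, Lepr, Jak2 and Stat3, were all lower in FD mice, as were 1.27% of all genes. The median log2 change of the members was -0.15 in AGRP and -0.47 in POMC neurons, against -0.02 over all genes tested in both. The responses differed for 2 of 10 members, beside 6.71% of all genes.

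Scaling by the spike-in RNA in place of TMM left no member past the threshold in either cell type. Over all genes tested, the calls fell from 1700 to 97 in AGRP neurons and from 62 to 13 in POMC neurons. Lepr was then higher in FD AGRP neurons by log2 2.18 ± 0.80 (q = 0.278) and Jak2 lower by -0.92 ± 0.77 (q = 1.0), while the median of all genes was -0.08. Stat3 in POMC neurons was lower by -2.56 ± 0.83 (q = 0.171), where the median of all genes was -1.11. The spike-in was added at 1 µl, at 10 µl or by cell number, depending on the library, and the SE was larger than with TMM scaling. In POMC neurons the amount by cell number was used in fed mice only (2 libraries) and 10 µl in FD mice only (2 libraries). For those POMC libraries the spike-in amount and the feeding state cannot be told apart.

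Between the cell types, no member passed in fed mice and 4 passed in FD mice. In fed mice 7.57% of all genes passed with edgeR. At an unadjusted p under 0.05 there were 2 members, beside 18.9% of all genes. limma-voom and DESeq2 each called 1, Jak2, beside 1491 and 1673 of all 16513 genes. Lepr was higher in fed AGRP neurons by log2 0.42 ± 0.21 (q = 0.263), and Jak2 lower by -0.82 ± 0.28 (q = 0.0716) with groups that did not overlap, as for 8.93% of all genes. The Jak2 q was 0.0248 with limma-voom and 0.0484 with DESeq2.

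In FD mice 4 of 10 members passed, beside 18.6% of all genes. Lepr was 11.4 times higher in AGRP than in POMC neurons (log2 3.51 ± 0.22, q = 9.02e-13). Stat3 was 4.00 times higher (log2 2.00 ± 0.21, q = 1.66e-08), and for both genes the groups did not overlap, as for 11.4% of all genes. Ptpn1 was 2.404 times higher (log2 1.27 ± 0.37, q = 0.0159), also without overlap, and without FD POMC library 4 its q was 0.0524. Jak2 was 2.23 times lower in AGRP neurons (log2 -1.16 ± 0.27, q = 0.00202), and its ranges overlapped only between 40.6 and 40.9 normalized CPM. With spike-in scaling the Jak2 difference turned to 0.32 (q = 0.784), while the median of all genes moved from 0.00 to 1.10.

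Per transcript length, the order of the members changed with state. In fed neurons Stat3 was the most abundant member, at 184.7 ± 35.7 TPM in AGRP neurons (SD, n = 5) and at a mean of 139.9 TPM in POMC neurons, from 110.9 to 161.9 (n = 5). Lepr followed at 48.3 ± 15.9 TPM in fed AGRP neurons, whereas in fed POMC neurons Jak2, at 66.1 ± 25.8, came before Lepr at 31.4 ± 4.00. In FD AGRP neurons Lepr, at 212.2 ± 46.5, and Stat3, at 205.6 ± 52.0 (n = 6), had overlapping ranges, and the next member was Ptpn1 at 27.3 ± 6.90. Lepr at 21.2 ± 4.80 TPM was sixth of the members in FD POMC neurons, where Stat3 at 59.3 ± 12.6 still led (n = 5). The lowest means were those of Stat5a in fed AGRP, fed POMC neurons and of Socs3 in both FD groups, at 3.89, 4.05, 3.19 and 4.48 TPM.

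**Figure D3:**
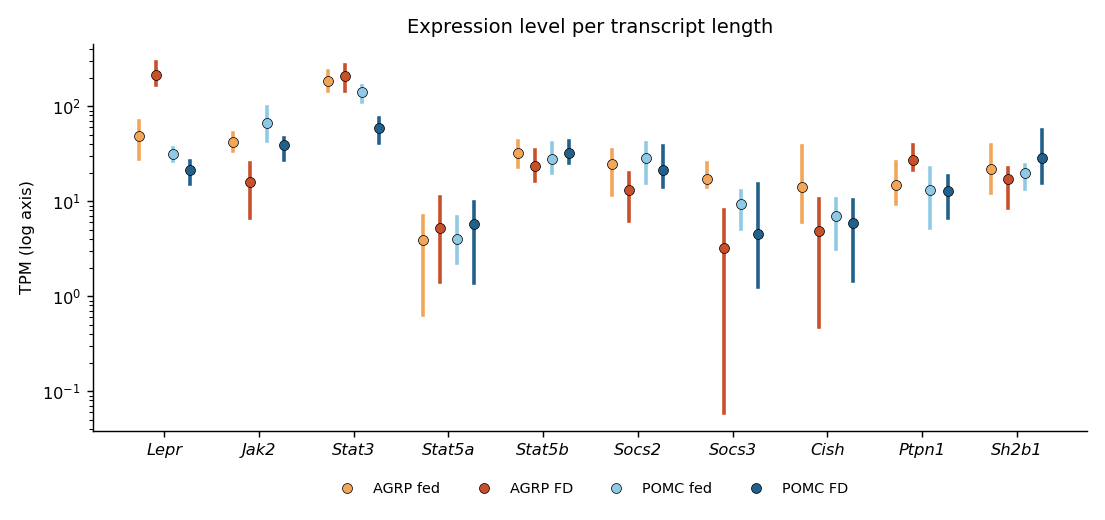
TPM (log axis) of the 10 leptin signalling genes in the 4 groups, with the mean as a point and the lowest to highest library as a line. In FD AGRP neurons Lepr at 212.2 and Stat3 at 205.6 lay far above the other members, of which Ptpn1 at 27.3 was the next.

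Of 55 other genes of the pathway, 52 were tested. In AGRP neurons 12 of the 52 passed, beside 10.3% of all genes, with 9 higher (5.87% of all genes) and 3 lower (4.43%). In POMC neurons 1 of the 52 passed, beside 0.375% of all genes. Their median log2 change was 0.12 in AGRP and -0.28 in POMC neurons, against -0.02 over all genes tested in both. With spike-in scaling 1 of them, Il6ra, passed in AGRP neurons and 0 in POMC neurons, beside 97 and 13 of all 16513 genes. By list, the AGRP calls were 5 of 16 tested receptors that couple to JAK kinases, 2 of 7 other JAK and STAT genes, 2 of 10 adaptors and PI3-kinase genes, 2 of 5 STAT3 targets and 1 of 2 genes of receptor trafficking (Leprot), beside the same 10.3%.

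Ghr, the growth hormone receptor (ENSMUSG00000055737, chr15:3317760-3583230), rose in AGRP neurons from 492.3 to 641.4 normalized CPM fed to 1143 to 1626 FD (log2 1.27 ± 0.18, q = 1.19e-05). In POMC neurons it averaged 111.5 ± 30.8 fed and 105.4 ± 29.1 FD (SD, n = 5 each, log2 -0.08 ± 0.18, q = 0.917), and the responses differed by log2 1.35 ± 0.25 (q = 0.000804). Prlr, the prolactin receptor, rose in AGRP neurons from a mean of 19.3 to 92.6 normalized CPM (log2 2.27 ± 0.23, q = 6.31e-08) and was higher in POMC neurons, at 391.3 fed and 416.5 FD. Both hormones signal mainly through STAT5.

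The other receptor calls in AGRP neurons were cytokine receptor chains. Il6ra, which binds interleukin-6, went from at most 0.759 normalized CPM fed to between 1.15 and 25.3 FD (q = 0.0146). Il2rg, the common gamma chain, went from a mean of 8.91 ± 4.58 to 28.6 ± 8.69 (q = 0.0477) and had no read in 8 of 10 POMC libraries. Il13ra1, a chain of the interleukin-13 receptor, fell from 11.9 ± 2.73 to 3.41 ± 2.43 (q = 0.011).

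Among the kinases and STATs, Jak1, the kinase of many cytokine receptors, rose from 190.8 ± 21.7 to 380.3 ± 91.8 normalized CPM in AGRP neurons (log2 0.99 ± 0.19, q = 0.000821), the opposite direction to Jak2. Stat2, an interferon signalling factor, fell from 33.96 ± 7.24 to 8.36 ± 2.88 (log2 -2.02 ± 0.41, q = 0.00112). Irf9, its partner in interferon signalling and entered in the list as a STAT3 target, fell from 36.2 ± 13.6 to 13.2 ± 1.73 (log2 -1.46 ± 0.37, q = 0.01). In POMC neurons Irf9 was at 33.0 ± 8.82 fed and 10.47 ± 8.59 FD (log2 -1.65 ± 0.40, q = 0.0556). Atf3, a factor induced by many kinds of cell stress and listed as a STAT3 target as well, rose from 0.304 to 9.97 in fed to 8.30 to 65.2 in FD AGRP neurons (q = 0.0353).

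Among the calls of these receptors and targets, that of Il2rg did not pass when any of the 11 AGRP libraries was left out (log2 1.45 to 1.93), with no count filter (q = 0.0637), other size factors (0.0516), the replicate block (0.0635) or spike-in scaling (0.739), and that of Atf3 was lost without any of 7 of them (2.97 to 4.53 over the 11 omissions).

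In the branch that joins leptin to insulin signalling, 2 of 10 tested genes passed in AGRP neurons, both higher, beside 5.87% of all genes. Irs2, a receptor substrate of insulin and leptin signalling, rose from 75.1 ± 16.0 to 145.3 ± 19.3 normalized CPM (log2 0.95 ± 0.24, q = 0.00999). Pik3r1, the regulatory subunit of PI3-kinase, rose from 83.1 ± 33.5 to 203.5 ± 62.0 (log2 1.29 ± 0.23, q = 0.000342). Irs4, a substrate that is abundant in the hypothalamus, was the 1 call in POMC neurons, where it fell from 1885 ± 87.2 to 1170 ± 99.4 (log2 -0.69 ± 0.10, q = 0.00023). In AGRP neurons Irs4 stood at 2627 ± 132 fed and 2825 ± 272 FD, and the responses differed by log2 0.79 ± 0.14 (q = 0.000362). Of the 12 tested genes of the list of other SOCS, PIAS and phosphatase genes, 0 passed in either cell type with edgeR. Their lowest q was 0.0995 in AGRP neurons (Socs1) and 0.128 in POMC neurons (Ptpn11). limma-voom called 1 in AGRP neurons (Socs1), beside 2115 of all 16513 genes. DESeq2 called 1 in POMC neurons (Ptpn11), beside 382 of all genes. These genes were named after their values were seen.

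**Figure D4:**
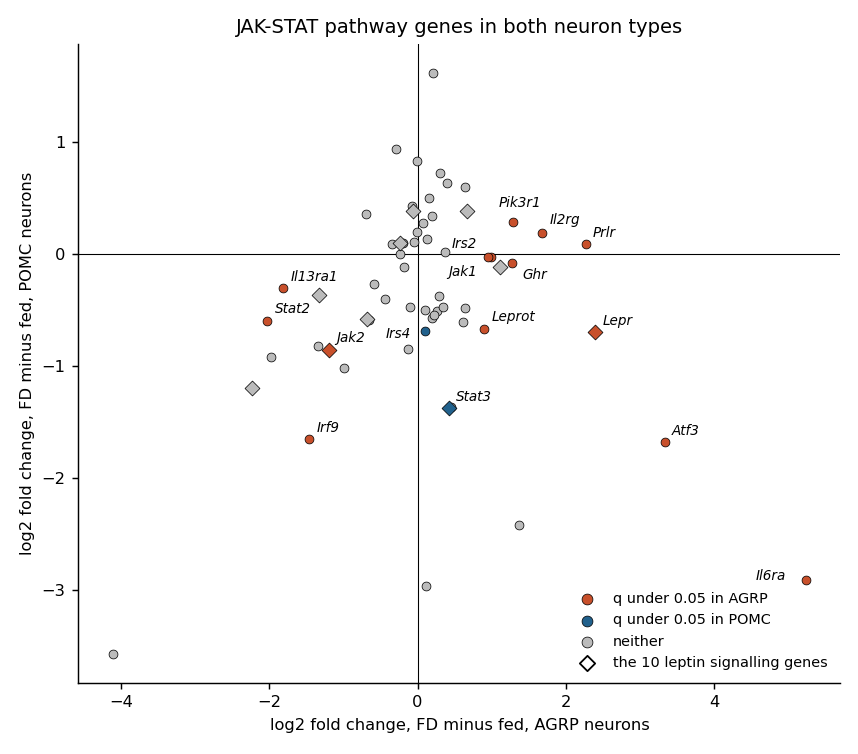
Log2 fold change with food deprivation in AGRP neurons (horizontal) and POMC neurons (vertical) of the 10 leptin signalling genes (diamonds) and the 52 other pathway genes tested (circles), coloured where q was under 0.05. Lepr stood at 2.39 and -0.69, Jak2 at -1.19 and -0.85, and Stat3 at 0.42 and -1.38.

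Across the 21 libraries, the genes most like Lepr were ranked by Pearson's r of log2 normalized CPM among 8205 genes with a mean above 20 CPM in some group. The 5 highest were Fam107b (0.95), Gm27031 (0.95), Sv2c (0.95), Ncoa2 (0.94) and Dlk1 (0.94), and Gm27031 lies 2271 bases from Sv2c. All 5 had their highest mean in FD AGRP neurons, as Lepr did. The 5 lowest were Grin2b (-0.95), St8sia1 (-0.95), Vwa3a (-0.94), Lrrc4c (-0.93) and Ndrg1 (-0.93), which had their lowest means there. After each group's own mean was subtracted, r of the highest 5 fell to between 0.39 and 0.57. Of the members, Ptpn1 (0.76) and Stat3 (0.75) were the most like Lepr, at 0.46 and 0.54 within groups, and Jak2 was the most opposed (-0.73), at -0.06 within groups. These libraries share their groups and strains, and r is a description only.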

How the data were processed

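Manually sorted neurons were profiled by RNA-Seq. The authors trimmed reads (cutadapt 1.7.1), removed abundant sequences (Bowtie2 2.1.0), mapped to mm10 (STAR 2.4.0i) and assigned uniquely mapped reads to genes without strand (HTSeq 0.6.1p1). The deposited counts are raw reads per gene, and the deposited TPM were made by the authors from counts and summed exon length. Of the reads in the table, 24.2 to 52.1% lay outside genes and stayed out of library sizes. Loci in the tables start at 0 and are given here from 1.

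Genes with CPM above 1 in at least 3 libraries were fitted with edgeR 4.0.16 (R 4.3.3, TMM, quasi-likelihood, 4 groups, Benjamini-Hochberg adjustment). SE is the log2 change over the square root of F. limma 3.58.1 (voom), the study's own test, and DESeq2 1.42.0 were alternatives. Scripts were tested on simulated data. Each library is 1 mouse.

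The 10 genes, the pathway list and the marker lists were chosen with earlier results of these data known. Text names all 10, other pathway genes called in either comparison of feeding state, Leprot, Ghr and the 5 genes at each end of likeness to Lepr. Sequences are RefSeq's, build GRCm38.p6. The spike-in entries (92) were used for 1 alternative scaling only.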

Additional observations from a re-analysis of the deposited data

Results flagged for a closer look

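Each of 40 groups of libraries (10 genes in 4 groups) was examined for a library far from the rest by Dixon's test, which by chance marks about 1 in 20, and 3 were marked. Socs2 was at 30.2 normalized CPM in FD POMC library 4, where the nearest other library was at 15.9. Socs3 was at 11.3 in FD POMC library 2, where the nearest was at 2.58. Cish was at 39.3 in fed AGRP library 4, where the nearest was at 11.3.

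The response to deprivation differed between AGRP and POMC neurons by the interaction test for Lepr (log2 3.09, q = 3.18e-08) and for Stat3 (log2 1.80, q = 0.000158), both higher in AGRP neurons. With spike-in scaling the q were 0.0566 and 0.299.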

How the results depend on the processing

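Groups of 5 or 6 mice and genes near 0, such as Socs3, limit the precision, and p-values measure the spread between mice of 1 strain per cell type. Spike-in scaling moved the median log2 change of all genes to -1.11 in POMC neurons, 1.10 between the cell types in FD mice and 1.04 in the difference of the responses, and limma-voom moved the AGRP median to -0.13. With spike-in scaling the members called fell from 2 to 0 in AGRP neurons, from 1 to 0 in POMC neurons and from 2 to 0 in the difference of the responses, and the other pathway genes called from 12 to 1 and from 1 to 0. Calls over all genes fell as well, from 1700 to 97 in AGRP neurons, from 62 to 13 in POMC neurons and from 1108 to 119 in the difference. The signs turned for Stat5a (-0.56), Stat5b (-0.93) and Sh2b1 (-0.86) in POMC neurons, for Jak2 between the cell types in FD mice (0.32) and for Jak2 (0.93) and Socs3 (0.21) in the difference of the responses. The cause was not tested, and in POMC neurons the spike-in amount was not balanced between fed and FD mice. Lepr between the cell types in FD mice still passed (4.68, q = 3.21e-05).

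Members called in AGRP neurons were 4 with limma-voom and with DESeq2, the added calls being Socs3 and Ptpn1. Over all 16513 genes these tools called 2115 and 2177 in AGRP neurons, where edgeR called 1700. In fed mice limma-voom, DESeq2 and edgeR on the compared groups alone each called 1 member between the cell types, where the fit of all groups called 0. Of all genes they called 1491, 1673 and 1412, where that fit called 1250. Pathway calls in POMC neurons were 3 with DESeq2, 2 without the count filter and 0 when a fold and a CPM minimum were required as well, beside 1. Over all the genes each tested there, DESeq2 called 382 and the unfiltered fit 89, where the main fit called 62. Il13ra1 in AGRP neurons had q = 0.0656 on the compared groups alone, and Irf9 in POMC neurons had q = 0.00467 with DESeq2. Ptpn1 in POMC neurons turned to 0.0722 with limma-voom and 0.048 with the spike-in amount as a block, and with that block Ptpn1 between the cell types in FD mice had q = 0.0655.

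Leaving out 1 library at a time gave 2 to 3 members called in AGRP, 1 in POMC neurons and 3 to 4 between the cell types in FD mice, and 9 to 12 pathway genes in AGRP and 1 to 2 in POMC neurons, the higher count without fed library 3 or FD library 2. Calls over all genes were not counted in these fits. The sign turned for Sh2b1 in AGRP neurons (-0.21 to 0.26), for Stat5b (-0.0137 to 0.24), Ptpn1 (-0.32 to 0.13), Sh2b1 (-0.0244 to 0.55) and Ghr (-0.16 to 0.0888) in POMC neurons, and for Socs3 in the difference of the responses (-1.57 to 0.21), all within changes that did not pass.

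The AGRP age classes and the POMC libraries with 1 µl of spike-in were subsets taken after the data were seen. Mice aged 46 or 47 days (5 libraries) gave 1 member (Lepr) and 1 pathway gene (Ghr) called. Calls over all genes were not counted. In those aged 51 to 55 days Stat5b (0.0412) and Sh2b1 (0.21) turned sign.

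Samples with the same replicate number were different mice, and their deviations from the group means were not alike (median correlation -0.00556 over 30 pairs, highest 0.0766, against up to 0.123 among 135 pairs of other numbers), so the numbers do not pair the samples. The replicate block gave 4 members called in AGRP neurons, adding Socs3 (-2.80, q = 0.0458) and Ptpn1 (1.32, q = 0.0399). Calls over all genes fell from 1700 to 1488. The AGRP calls of Leprot and Il2rg and the Leprot difference call were lost, and Sh2b1 turned to 0.0871. In POMC neurons 2 pathway genes were called, adding Irf9 (q = 0.0399), and all calls fell from 62 to 48.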
